A study of Mus musculus with 2 samples.

Results

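The mouse serpin genes were examined for H3K9me2, a dimethyl mark on histone H3 that is found in repressed chromatin. Members were the autosomal protein-coding genes whose RefSeq symbol is Serpin followed by a clade letter a to i and a digit. There were 62 of them among 20558 autosomal protein-coding genes. Serpina7, on the X chromosome, and 6 serpin pseudogene entries fell outside that rule. Each member was taken as its gene body with 2 kb on both sides, called its window, and H3K9me2 peaks that touched a window by at least 1 bp were counted. The median window was 15.1 kb long, with a range of 9.32 to 89.03 kb.

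The peaks came from 2 CUT&Tag libraries, a method in which an antibody guides a tagging transposase to marked chromatin. One library was from activated B cells of a jmjd1c B KO mouse line (KO) and the other from activated B cells of WT mice, both on the C57BL/6 strain. Jmjd1c encodes a jumonji-domain protein of a family that includes H3K9 demethylases. The stimulus used, the age and number of the mice and the Cre line are not given in the sources used here. With 1 library per genotype there was no replicate error and no p-value was computed. Intervals below are 95% intervals that cover counting error only.

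The KO library had 34502392 tags and 30144 autosomal peaks, and the WT library had 33474010 tags and 29528 autosomal peaks. That is 12.5 peaks per Mb in KO and 12.3 in WT. The authors' peak caller extended tags to a modelled length d of 189 bp in KO and 292 bp in WT, which is also the smallest peak it could report in each list. Of the B cell identity genes Pax5, Cd79a, Cd79b, Ms4a1, Ebf1, Cd22 and Blk, 0 had a peak in either library. Over all autosomal protein-coding genes, 9.67% had a KO peak and 9.45% a WT peak in their window. A count of 0 in so short a list does not set these genes apart. Of 4 T cell marker genes 0 had a peak, and of 4 myeloid marker genes 1 had a peak in each library. Without a peak, a gene had no region above the authors' limits, and a peak list of a repressive mark cannot show which cells were present.

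Serpins are a family of proteins that mostly inhibit proteases by trapping them. A loop of the serpin is offered as bait, and when the protease cuts it the serpin changes shape and locks the enzyme in place. Clade a serpins are largely secreted by the liver, and clade b serpins work inside cells, where several protect lymphocytes and myeloid cells from granzymes, cathepsins and elastase. Most mouse clade a and clade b genes sit in arrays that grew by gene duplication, whereas serpins of the other clades lie elsewhere, singly or in pairs.

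Among the serpins with a promoter sequence, peaks over gene starts lay in the Serpinb9 array on chromosome 13, in which related copies of the granzyme B inhibitor gene Serpinb9 follow each other. RefSeq promoter sequences, 250 bases before to 50 after a start site (GRCm38.p6), were given for 53 of the 62 serpins. Those without one included Serpina3k, Serpina3m, Serpina6, Serpina9, Serpina10, Serpinb1a, Serpinb13 and Serping1. A peak touched the promoter of 2 of the 53 in KO and of 5 in WT, where the background over 16457 autosomal protein-coding genes was 1.36% in KO and 1.37% in WT. All 5 were neighbouring Serpinb9 copies, Serpinb9c to Serpinb9g without Serpinb9h. They are shown with Serpinb9h, which lies between Serpinb9f and Serpinb9g and had no peak in its window. Each runs 5′ to 3′ with the start site at base 251, and capitals mark the bases inside a WT peak. The positions are chr13:33159705-33160004 on the minus strand for Serpinb9c and, on the plus strand, chr13:33192705-33193004 for Serpinb9d, chr13:33249358-33249657 for Serpinb9e, chr13:33323827-33324126 for Serpinb9f, chr13:33484540-33484839 for Serpinb9g and chr13:33395423-33395722 for Serpinb9h.
Serpinb9c: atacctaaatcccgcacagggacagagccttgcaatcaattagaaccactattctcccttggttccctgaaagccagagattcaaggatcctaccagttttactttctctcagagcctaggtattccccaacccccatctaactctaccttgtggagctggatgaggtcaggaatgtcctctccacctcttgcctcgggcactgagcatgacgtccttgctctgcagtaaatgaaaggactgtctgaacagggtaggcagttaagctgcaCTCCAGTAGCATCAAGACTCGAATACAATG
Serpinb9d: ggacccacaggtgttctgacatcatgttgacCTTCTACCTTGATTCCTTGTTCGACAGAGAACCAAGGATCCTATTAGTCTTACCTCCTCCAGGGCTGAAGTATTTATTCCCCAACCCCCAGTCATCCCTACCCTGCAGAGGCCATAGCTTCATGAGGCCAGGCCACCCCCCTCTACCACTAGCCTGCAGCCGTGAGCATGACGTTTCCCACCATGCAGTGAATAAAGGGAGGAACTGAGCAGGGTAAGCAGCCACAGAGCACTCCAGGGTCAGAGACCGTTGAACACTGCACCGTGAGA
Serpinb9e: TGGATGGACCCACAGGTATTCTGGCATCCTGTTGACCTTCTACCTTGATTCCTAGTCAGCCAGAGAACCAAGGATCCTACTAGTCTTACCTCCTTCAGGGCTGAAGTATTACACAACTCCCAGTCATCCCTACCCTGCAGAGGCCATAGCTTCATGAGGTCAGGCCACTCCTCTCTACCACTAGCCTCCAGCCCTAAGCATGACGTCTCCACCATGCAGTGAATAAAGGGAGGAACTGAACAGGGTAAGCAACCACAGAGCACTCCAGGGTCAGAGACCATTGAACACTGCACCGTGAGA
Serpinb9f: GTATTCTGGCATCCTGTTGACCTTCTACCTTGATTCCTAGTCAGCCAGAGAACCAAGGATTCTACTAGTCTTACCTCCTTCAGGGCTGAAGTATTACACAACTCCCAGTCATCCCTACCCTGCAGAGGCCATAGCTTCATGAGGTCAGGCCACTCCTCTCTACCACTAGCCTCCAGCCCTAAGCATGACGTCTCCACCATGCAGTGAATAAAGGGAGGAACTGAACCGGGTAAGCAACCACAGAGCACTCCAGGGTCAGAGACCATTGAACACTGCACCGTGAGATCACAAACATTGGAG
Serpinb9g: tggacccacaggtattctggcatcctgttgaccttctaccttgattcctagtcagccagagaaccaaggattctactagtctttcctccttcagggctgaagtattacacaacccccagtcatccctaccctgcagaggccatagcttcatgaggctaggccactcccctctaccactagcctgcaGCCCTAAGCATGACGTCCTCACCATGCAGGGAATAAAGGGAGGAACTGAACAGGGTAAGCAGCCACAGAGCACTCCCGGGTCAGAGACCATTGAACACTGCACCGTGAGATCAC
Serpinb9h: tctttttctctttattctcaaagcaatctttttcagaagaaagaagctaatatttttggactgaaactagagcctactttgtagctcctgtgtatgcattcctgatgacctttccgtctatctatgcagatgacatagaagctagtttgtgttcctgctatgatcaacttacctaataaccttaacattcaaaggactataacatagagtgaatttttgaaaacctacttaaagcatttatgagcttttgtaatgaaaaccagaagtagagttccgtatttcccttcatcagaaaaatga

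Measured from the start site in the direction of transcription, the Serpinb9e promoter held a KO peak from -1104 to -116 and a WT peak from -682 to 775. At Serpinb9f the KO peak ran from -288 to 380 and the WT peak from -682 to 152. These were the only serpin promoters with a peak in both libraries, and for both genes the peaks overlapped each other, by 567 bp at Serpinb9e and 441 bp at Serpinb9f. The background for a promoter peak in both libraries was 0.766%. At Serpinb9d the KO peak ran from 878 to 1110, inside the gene, and the WT peak from -219 to 379 over the start, with 498 bp between them. At Serpinb9g the KO peak lay 7627 bp or more into the gene, and the WT peak ran from -64 to 264. Serpinb9c had no KO peak in its window and a WT peak from 20 to 1054.

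**Figure D1:**
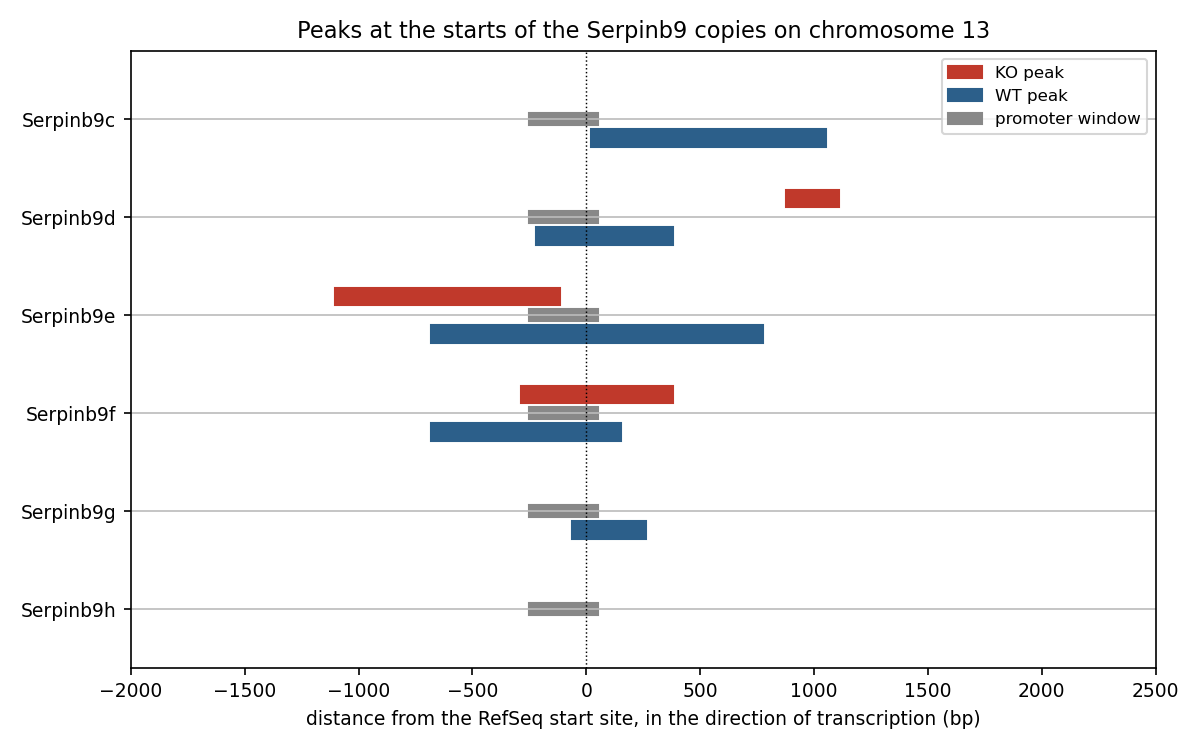
Peaks of the KO library (red, above each line) and the WT library (blue, below each line) around the RefSeq start sites of 6 Serpinb9 copies, with the x axis in bp from the start in the direction of transcription and the promoter window in grey. Only Serpinb9e and Serpinb9f have a KO and a WT peak that touch the promoter window; Serpinb9h has none, and the KO peak of Serpinb9g lies outside the plotted range.

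The promoters of Serpinb9d, Serpinb9e, Serpinb9f and Serpinb9g were close copies of one another, with 82.9 to 93.4% identical positions over 6 global alignments. Serpinb9c shared 57.9 to 62.5% with these 4, and Serpinb9h shared 45.6 to 48.3%. The copies are thus not independent, and reads from such copies can be placed on the wrong one, so which copy carries a peak is uncertain. The 6-letter sequence TGACGT, searched on both strands in the outermost promoter of each gene after the promoters had been read, was in all 5 promoters with a WT peak and in 1 of the other 48 serpin promoters, that of Serpina3b. Because it was picked from these same promoters, 4 of them close copies, this count cannot link the sequence to a peak. In Serpinb9c it lay outside the WT peak, which covered only 30 bases of that promoter. TGACGT was in 8.82% of all promoters, in 7.62% of those with a KO peak and in 4.89% of those with a WT peak. The 5 Serpinb9 promoters held 2 to 5 CG dinucleotides, against a median of 3 in the 48 serpin promoters without a peak and 14 in all promoters.

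Across the whole family, 15 of the 62 serpins had a KO peak in their window (24.2%, 14.2 to 36.7%, exact binomial interval) and 15 had a WT peak (24.2%, with the same interval). The background over all autosomal protein-coding genes was 9.67% for a KO peak and 9.45% for a WT peak. Serpin windows are short, and among the 4566 genes with windows between the serpin quartiles of 12.3 and 24.1 kb the background was 3.29% in KO and 3.24% in WT. Clustered members share their neighbourhood and do not count as separate observations. There were 8 serpins with a peak in both libraries (background 7.68%), 7 in KO only (background 1.98%), 7 in WT only (background 1.77%) and 40 in neither.

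The 62 windows held 20 KO peaks and 22 WT peaks, a KO to WT ratio of 0.909 (0.471 to 1.75), against 1.02 (0.993 to 1.05) over all genes. Peak density in serpin windows was 15.1 per Mb in KO (9.24 to 23.4, exact Poisson interval) and 16.6 per Mb in WT (10.4 to 25.2). Over all autosomal protein-coding windows it was 8.90 per Mb in KO (8.72 to 9.08) and 8.71 per Mb in WT (8.53 to 8.89). The intervals of serpins and of all genes did not overlap in either library. These intervals, and those below, treat peaks as independent, though clustered members share their neighbourhood. Of the serpin peaks, 9 of 20 in KO and 13 of 22 in WT lay in windows of the chromosome 1 cluster. The gap between intervals therefore does not show a difference of the family as a whole. Over the genes with windows between the serpin quartiles the density was 2.45 per Mb in KO (2.12 to 2.82) and 2.59 per Mb in WT (2.25 to 2.97). These are called genes of similar window length below. The serpins set against them were not limited to that range of lengths. The cluster on chromosome 1 had the highest density of the family. Without its 12 genes, a comparison chosen after seeing the data, the other 50 serpins held 11 KO peaks (10.4 per Mb, 5.18 to 18.6) and 9 WT peaks (8.49 per Mb, 3.88 to 16.1), and both intervals include the value of all genes and lie above that of the genes of similar window length. Of these 50, 11 had a KO peak (22%, 11.5 to 36.0%), against 9.67% of all genes and 3.29% of those of similar window length. A WT peak was found in 9 (18%, 8.58 to 31.4%), against 9.45% of all genes and 3.24% of those of similar window length.

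**Figure D2:**
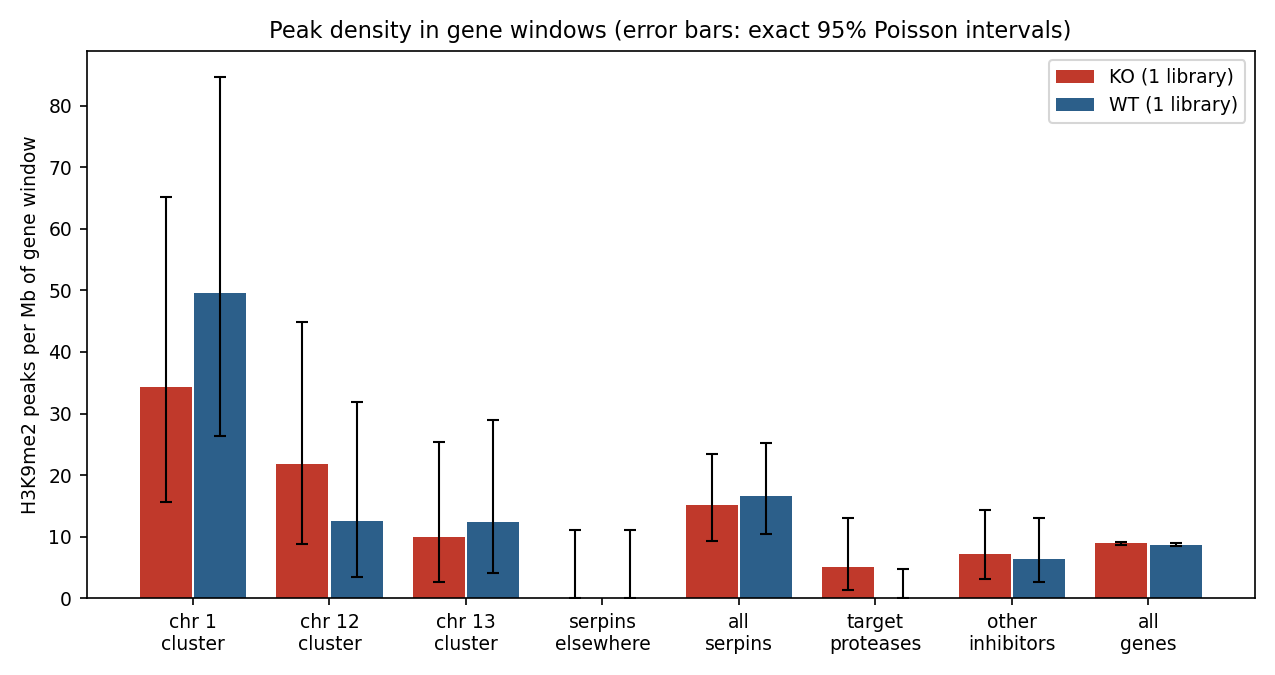
H3K9me2 peaks per Mb of gene window in KO (red, left) and WT (blue, right), 1 library each, with exact 95% Poisson intervals as error bars. The chromosome 1 cluster has the highest density, 34.3 per Mb in KO and 49.5 in WT, and the serpins outside the clusters have no peak.

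By clade, peaks were found in windows of clades a and b only. The 23 clade a genes held 7 KO and 4 WT peaks, 21.8 per Mb in KO (8.76 to 44.9) and 12.5 per Mb in WT (3.39 to 31.9). The 28 clade b genes held 13 KO and 18 WT peaks, 19.5 per Mb in KO (10.4 to 33.4) and 27.03 per Mb in WT (16.02 to 42.7). The KO to WT ratio was 1.75 in clade a (0.445 to 8.15) and 0.722 in clade b (0.325 to 1.56). Both intervals include 1 and they overlap each other. The 11 genes of clades c to i had 0 peaks in both libraries (0%, 0 to 28.5% in each). That interval includes the share of all genes, 9.67% in KO and 9.45% in WT. It also includes the 3.29% in KO and 3.24% in WT of genes of similar window length.

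Those 11 genes are also the members outside the clusters on chromosomes 1, 12 and 13. They encode major plasma and tissue serpins. Serpinc1 is antithrombin, Serpind1 heparin cofactor, Serping1 the inhibitor of the first complement component, and Serpinf2 antiplasmin. Serpine2 restrains thrombin, Serpini1 is the neuronal neuroserpin, Serpinf1 an anti-angiogenic factor and Serpinh1 a collagen chaperone. The group also includes Serpini2 and Serpine3. Their windows made up 0.335 Mb, in which a count of 0 allows up to 8.95 peaks per Mb, so a density like that of all genes, 8.90 per Mb in KO and 8.71 in WT, was at the limit of what they could show. The peak nearest to any of them lay 54.8 kb from Serpini2, in KO. For Serpinh1 and Serpine3 the nearest peak of either library was 3098 and 3601 kb away.

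**Figure D3:**
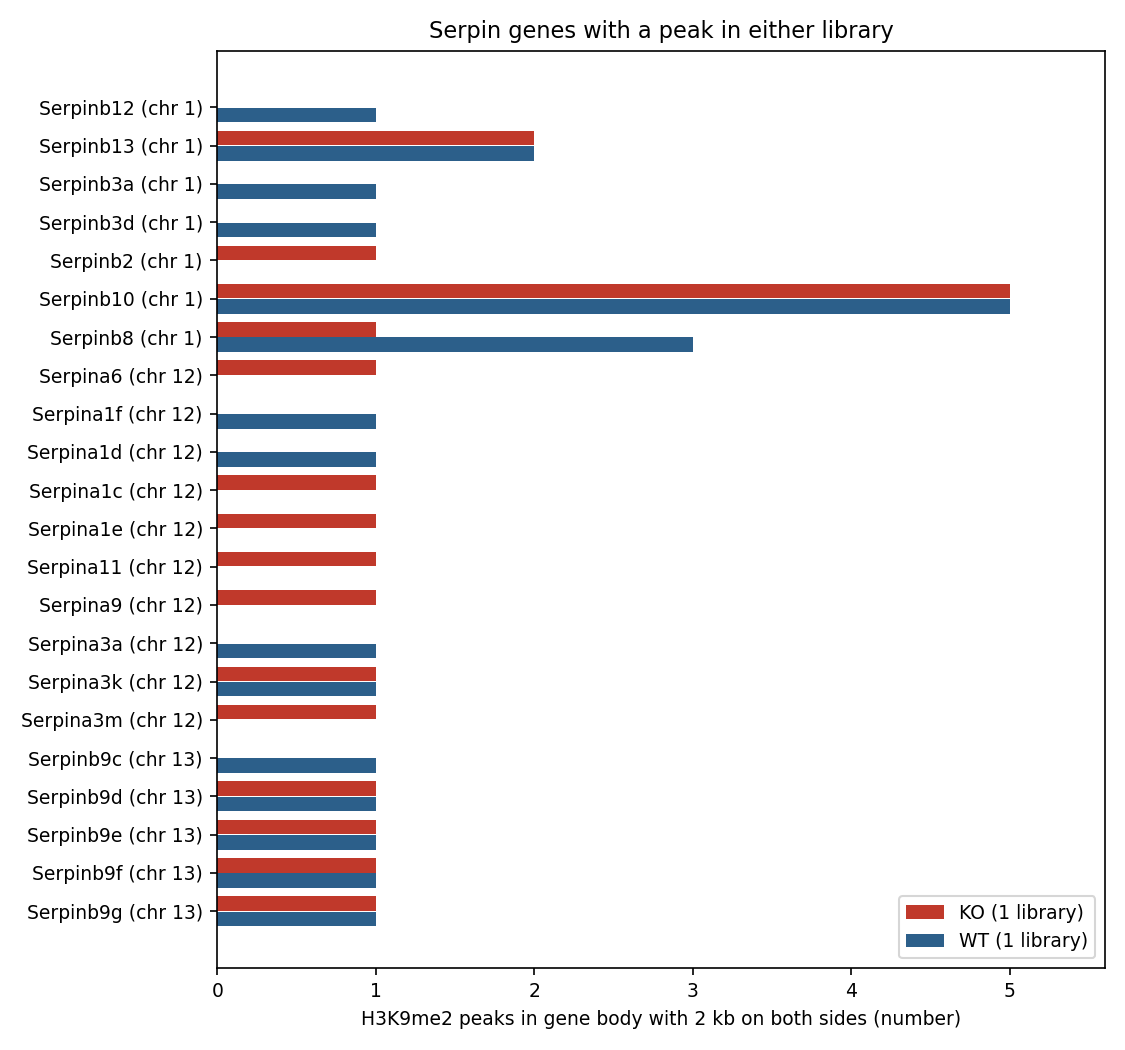
Number of H3K9me2 peaks in the window (gene body with 2 kb on both sides) of each of the 22 serpins with a peak in either library, in KO (red, upper bar) and WT (blue, lower bar), 1 library each, in genome order. Serpinb10 has 5 peaks in each library, and no other member has more than 3.

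Of the 3 clusters, the clade b cluster on chromosome 1 was the richest in H3K9me2. It holds 12 serpins from Serpinb5 to Serpinb8 (positions 106861175 to 107608978, mm10) and no other protein-coding gene. Its member windows held 9 KO peaks (34.3 per Mb, 15.7 to 65.1) and 13 WT peaks (49.5 per Mb, 26.4 to 84.7). The whole span of 0.748 Mb, including the sequence between genes, held 27 KO peaks (36.1 per Mb, 23.8 to 52.5) and 34 WT peaks (45.5 per Mb, 31.5 to 63.5). Chromosome 1 as a whole had 14.2 peaks per Mb in KO and 13.9 in WT. Between the member windows the density was 36.8 per Mb in KO and 42.9 in WT, within the intervals of the density inside them. In the 1 Mb bin from 107000001 to 108000000, whose 9 protein-coding genes are all serpins, there were 33 KO and 38 WT peaks. Of 442 autosomal bins with 7 to 11 genes, 15 had at least as many in KO (3.39%) and 12 in WT (2.71%), and the median bin had 4 in each library. The bin before it, with 3 serpins among 7 genes, held 3 KO and 6 WT peaks, against a median of 7 in each library over 594 bins with 5 to 9 genes.

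Serpinb10, whose human counterpart is an intracellular serpin of blood-forming cells, carried the most peaks of any serpin, 5 in KO and 5 in WT. Peaks covered 10.7% of its window in KO and 7.83% in WT. In 4 of these sites the libraries overlapped. The widest lay inside the gene from 107555044 to 107557037 in KO (1994 bp) and from 107555104 to 107556711 in WT (1608 bp), and the WT peak lay wholly within the KO peak. That WT peak had the lowest q-value of the 22 WT peaks in serpin windows, with a −log10 q of 7.31 in the authors' list. The smallest overlap of the family, 18 bp, was also at Serpinb10. Neighbouring Serpinb2, an inhibitor of the plasminogen activator urokinase, had 1 KO peak inside the gene (107518159 to 107518493) and no WT peak nearer than 10.8 kb.

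Serpinb8, whose human counterpart inhibits the proprotein protease furin, had 1 KO peak and 3 WT peaks, and the KO peak overlapped 1 of the WT peaks by 406 bp. Serpinb13, which inhibits cathepsins in skin, had 2 peaks in each library. A pair of these overlapped by 462 bp, and the other KO and WT peaks lay 53 bp apart. Serpinb12, Serpinb3a and Serpinb3d had 1 WT peak each and none in KO. Serpinb3a and Serpinb3d belong to the squamous cell carcinoma antigen group, as do Serpinb3b and Serpinb3c, which had no peak in their windows. How alike these Serpinb3 genes are was not measured here, so assignments of peaks among them are uncertain. The KO peak nearest to Serpinb3b was 2.14 kb from the gene body and the nearest WT peak 5.12 kb, which made it the closest of the members without a peak. The others were Serpinb5, a serpin that does not inhibit proteases, Serpinb7 and Serpinb11.

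**Figure D4:**
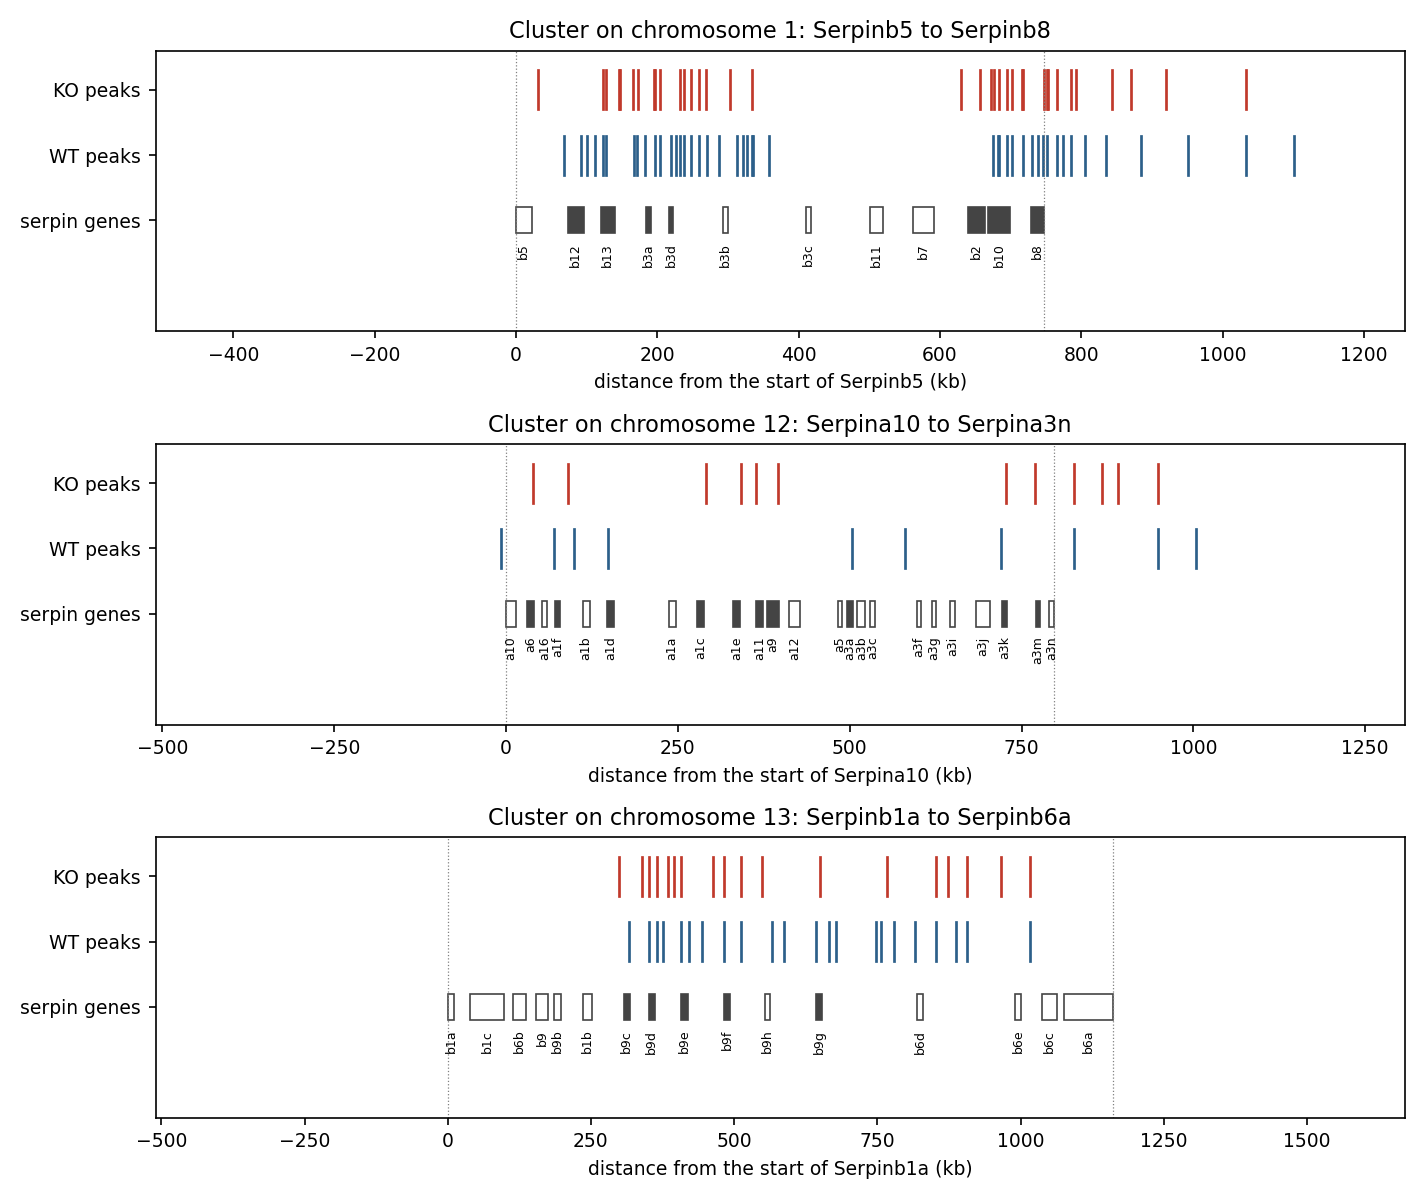
Peaks of KO (red, upper row) and WT (blue, middle row) and serpin genes (bottom row, filled where the window holds a peak in either library) over the 3 clusters with 500 kb on each side, with the x axis in kb from the start of the first member. Dotted lines mark the ends of each cluster; the stretch left of the chromosome 1 cluster and both sides of the chromosome 13 cluster have no peak, and peaks run on past the right end on chromosome 1.

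The edges of the chromosome 1 cluster differed from each other. The 500 kb to the left of Serpinb5 held 0 peaks in KO and 0 in WT, and the nearest peak on that side was 1375 kb away in KO and 1384 kb in WT. That stretch contains Vps4b, Kdsr and the apoptosis inhibitor gene Bcl2, none of which had a peak. Inside the cluster the first peak lay 30.5 kb from the start of Serpinb5 in KO and 67.7 kb in WT. To the right of Serpinb8 the peaks continued, with 9 in KO and 10 in WT over 500 kb and the nearest 3.25 kb away in KO and 3.18 kb in WT. The next protein-coding gene on that side, Cdh7, is 2373 kb away. The cluster was also broken in the middle. A stretch of 271 kb, from 107219472 to 107490744, had no peak in either library and held Serpinb3c, Serpinb11 and Serpinb7.

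The clade b cluster on chromosome 13 runs over 1.16 Mb from Serpinb1a to Serpinb6a (32842092 to 34002794) and holds 16 serpins. Its member windows held 4 KO peaks (9.91 per Mb, 2.70 to 25.4) and 5 WT peaks (12.4 per Mb, 4.02 to 28.9). Its span held 18 KO peaks (15.5 per Mb, 9.19 to 24.5) and 22 WT peaks (19.0 per Mb, 11.9 to 28.7), against 14.8 per Mb in KO and 15.4 in WT over chromosome 13. Between the windows there were 18.4 peaks per Mb in KO and 22.3 in WT. The bin from 33000001 to 34000000, with 13 protein-coding genes, held all 18 KO and all 22 WT peaks, and 6.20% of 258 bins with 11 to 15 genes had at least as many in KO and 5.04% in WT. The bin before it, with 4 serpins among 6 genes, held 0 KO and 0 WT peaks, against a median of 9 in each library over 637 bins with 4 to 8 genes.

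Peaks on chromosome 13 filled the middle of the cluster and left its ends free. The first 298.9 kb held 6 serpins and 0 peaks in either library. These were Serpinb1a, an inhibitor of neutrophil elastase, Serpinb1c, Serpinb6b, the granzyme B inhibitor gene Serpinb9 itself, Serpinb9b and Serpinb1b. The first KO peak began at 33140984, between Serpinb1b and Serpinb9c. The first WT peak began at 33158700, inside Serpinb9c. The last 143 kb, with Serpinb6c and the cathepsin G inhibitor gene Serpinb6a, also had no peak. Outside the cluster the nearest peak to the left was 1317 kb away in KO and 1294 kb in WT, and to the right 1036 kb in KO and 2598 kb in WT. Of the 8 members in between, the 5 Serpinb9 copies described above had a peak. Serpinb9h was 4.24 kb from a KO peak and 2.77 kb from a WT peak. Serpinb6d was 23.2 kb from a KO peak and 4.09 kb from a WT peak. Serpinb6e was 15.5 kb from a KO peak and 15.4 kb from a WT peak.

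In the clade a cluster on chromosome 12, 0 of 8 KO peaks and 0 of 6 WT peaks were overlapped by a peak of the other library. Over all autosomal peaks the overlapped share was 46.1% in KO and 46.8% in WT, and the numbers here are small. The cluster holds 23 serpins from Serpina10, which inhibits a clotting factor with the help of protein Z, to Serpina3n, a granzyme B inhibitor (103616675 to 104414334). Its member windows held 7 KO peaks (21.8 per Mb) and 4 WT peaks (12.5 per Mb). Its span of 0.798 Mb held 8 KO peaks (10.03 per Mb, 4.33 to 19.8) and 6 WT peaks (7.52 per Mb, 2.76 to 16.4), against 11.7 per Mb in KO and 11.2 in WT over chromosome 12. Here only 1 KO and 2 WT peaks lay between the member windows, 2.08 per Mb in KO and 4.16 in WT. The bin from 103000001 to 104000000, with 20 protein-coding genes, held 5 KO and 4 WT peaks, and 28.6% of 133 bins with 18 to 22 genes had at least as many in KO and 26.3% in WT. The bin from 104000001 to 105000000, with 16 genes, held 7 KO and 6 WT peaks, and 22.8% of 189 bins with 14 to 18 genes had at least as many in KO and 23.3% in WT. The median of these matched bins was 0 in each library.

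Among the chromosome 12 members, Serpina6, the plasma carrier of corticosteroids, Serpina1c and Serpina1e, antitrypsin genes, Serpina11, Serpina9 and Serpina3m had 1 KO peak each and no WT peak. Serpina9, whose human counterpart is expressed in germinal centre B cells, had its KO peak inside the gene from 104011708 to 104012329, with a −log10 q of 2.25 in the authors' list, near the limit of 2 that a q of 0.01 sets. The nearest WT peak was 106 kb from the gene. Serpina1f, Serpina1d and Serpina3a had 1 WT peak each and no KO peak. Serpina3k had 1 peak in each library, and they lay 7235 bp apart. Serpina3g, a serpin known in lymphocytes, had no peak and was 102 kb from the nearest KO peak and 38.98 kb from the nearest WT peak. Serpina3b was 116 kb from the nearest KO peak and 7.71 kb from the nearest WT peak. Serpina10 and Serpina3n, at the ends, had no peak in their windows either. The antitrypsin genes and the Serpina3 genes are groups of closely related copies, so assignments among them are uncertain.

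On the left of the chromosome 12 cluster the nearest KO peak was 724 kb away, whereas the nearest WT peak lay 6.84 kb from Serpina10. On the right both libraries had their nearest peak 28.1 kb beyond Serpina3n, and these peaks overlapped. The 500 kb on that side held 4 KO and 3 WT peaks. Within the cluster the longest stretches without a peak in either library were 141, 139 and 108 kb.

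Sharing between the genotypes was highest over the chromosome 1 span and nil over the chromosome 12 span, with no test of that difference. Over the chromosome 1 span, 16 of 27 KO peaks (59.3%) were overlapped by a WT peak and 16 of 34 WT peaks (47.1%) by a KO peak. Over the chromosome 13 span it was 7 of 18 KO peaks (38.9%) and 7 of 22 WT peaks (31.8%). Over the chromosome 12 span it was 0 of 8 KO peaks and 0 of 6 WT peaks. By the limit of 3 counts this allows shares of up to 37.5% in KO and 50% in WT. That limit is rough at numbers this small, and no comparison with other shares rests on it. Over all autosomal peaks the overlapped share was 46.1% in KO and 46.8% in WT. In the member windows of all serpins together, 8 of 20 KO peaks (40.0%, 19.1 to 63.9%) and 8 of 22 WT peaks (36.4%, 17.2 to 59.3%) were overlapped, and both intervals include the autosomal share. The overlapping pairs lay in 5 genes, Serpinb10, Serpinb13, Serpinb8, Serpinb9e and Serpinb9f. Serpinb9d, Serpinb9g and Serpina3k had a peak in each library at separate sites. The KO peaks that were not overlapped had their nearest WT peak at a median of 24.05 kb, and such WT peaks had their nearest KO peak at a median of 10.8 kb.

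Most serpin peaks were weak calls. Their median −log10 q in the authors' lists was 2.77 in KO and 3.09 in WT, against 3.01 and 3.28 over all autosomal peaks of KO and WT. Median fold enrichment over local background, the authors' value for each peak, was 2.85 in KO and 2.46 in WT, against 3.06 and 2.70 over all autosomal peaks of KO and WT. At a q of 1e-05 or lower there remained 1 of the 20 KO peaks, at Serpinb9d, and 3 of the 22 WT peaks, at Serpinb10, Serpinb9d and Serpinb9g. These are 0.756 per Mb in KO and 2.27 in WT, against 0.690 per Mb in KO and 1.10 in WT over all gene windows at the same limit, which lie inside the serpin intervals of 0.0191 to 4.21 in KO and 0.468 to 6.63 in WT. Serpin peaks had a median width of 446 bp in KO and 428.5 bp in WT. In WT, 6 of 22 (27.3%) were at the smallest possible width, against 11.6% of all autosomal WT peaks, and in KO it was 1 of 20 (5%) against 12.8%. Most midpoints fell inside the gene body, 15 of 20 in KO and 17 of 22 in WT, but the body is also most of each window. Counted without flanks, peak density was 13.95 per Mb in KO and 16.7 in WT. With the flanks it was 15.1 in KO and 16.6 in WT, so no preference for the body is shown.

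Genes that act with the serpins were counted in the same way. Of 42 genes for proteases that serpins inhibit or that act in the same cascades, 4 had a KO peak (9.52%, 2.66 to 22.6%), against a background of 9.67%, and 0 had a WT peak (0 to 8.41%), against a background of 9.45%. Among the genes with windows between the serpin quartiles the share was 3.29% in KO and 3.24% in WT, inside these intervals. A lack of WT peaks is thus not shown for genes with short windows. The 4 genes with a KO peak were the granzyme genes Gzmc and Gzme, the mast cell protease gene Mcpt8 and Klkb1, which encodes plasma kallikrein, with 1 peak each. In WT a count of 0 over their 0.784 Mb allows up to 3.83 peaks per Mb. Of 54 genes for other protease inhibitors, namely cystatins, stefins, Spink and Wfdc genes, Timp genes and the macroglobulin group, 6 had a KO peak and 6 a WT peak (11.1% each, 4.19 to 22.6%), with 8 KO and 7 WT peaks in all. That interval includes the background of 9.67% in KO and 9.45% in WT. It lies above the 3.29% in KO and 3.24% in WT of the genes matched to serpin windows, which were not matched to these genes. Spink5, an epidermal inhibitor of kallikreins, led the 54 genes with 3 KO and 2 WT peaks.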

How the data were processed

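Peak lists of 2 H3K9me2 CUT&Tag libraries (1 KO, 1 WT) were assigned to genotypes from the labels. Peaks were called by the authors in each library alone with MACS2 2.2.7.1 in broad mode, at q and broad cutoffs of 0.01, with all duplicates kept, no control library and paired-end mode off, per the file headers. The submitters' processing notes name mm10, Trim Galore 0.6.6, Bowtie2 2.4.2, SAMtools 1.11, Picard, HOMER and deepTools without roles. The deposited pileup is a coverage signal of tags extended to d and is not scaled between libraries. Both the p-value and the q-value are deposited as −log10, and fold enrichment is the authors' ratio to local background. Because d differed (189 bp in KO, 292 bp in WT), widths and q-values are not comparable between lists. Without a control, and with kept duplicates, read towers can pass as peaks.

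Gene positions came from RefSeq (GRCm38.p6, the assembly behind mm10), after 348 genes of scaffolds were left out. Clusters were runs of members with gaps of at most 1 Mb; their edges were examined with 500 kb on each side. Intervals were exact Poisson for counts, Clopper-Pearson for shares and binomial-based for ratios, all at 95%. Where a count of 0 is said to allow up to a value, that value is the limit of 3 counts. Promoters were aligned globally (match 1, mismatch -1, gap opening -3, extension -1) with Biopython 1.88. Other computation used Python 3.11.15, pandas 2.3.3 and SciPy 1.17.1. Counting, overlap and interval functions were tested on simulated data. Every member with a peak was to be named, with the 5 nearest members without one, cluster ends and members known in B cells. The printed sequences were promoters only, since no genome was used here. Members and lists were chosen with earlier results of these data known. Some genes of the lists are counted in the totals and not reported by name here.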

Additional observations from a re-analysis of the deposited data

How the results depend on the processing

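The 17 results were recomputed under 9 alternatives, with 1 more (without the chromosome 1 cluster) chosen after seeing the data, which gave 133 values. Of these, 100 stayed within 1.5 times the reported count or within its interval, and 33 did not. At a q of 1e-05 or lower, member windows kept 1 KO and 3 WT peaks (0.756 and 2.27 per Mb in KO and WT, ratio 0.333) in 1 and 3 members, with 0% overlapped in KO and 0% in WT. The spans then held 3 KO and 5 WT peaks on chromosome 1, 0 and 0 on chromosome 12, and 2 and 2 on chromosome 13. With peaks at least 1 kb wide, windows held 2 KO and 3 WT peaks (1.51 and 2.27 per Mb) in 2 and 3 members. All gene windows fell too, to 0.426 per Mb in KO and 0.703 in WT. Those values lie inside the serpin intervals of 0.183 to 5.46 in KO and 0.468 to 6.63 in WT. At that width the spans held 3 KO and 3 WT peaks on chromosome 1, 0 and 0 on chromosome 12, and 0 and 2 on chromosome 13. With 10 kb of flank, windows held 32 KO and 34 WT peaks. The caller's d enters q and width, and the cause of these falls was not tested. Without the chromosome 1 cluster, 11 KO and 9 WT peaks remained in windows, with 8.49 per Mb in WT and 9 members with a WT peak. Values under 0 kb of flank, merging within 5 kb, KO peaks widened by 103 bp, exclusion of pileups of 100 or more, reciprocal overlap of 50% and cluster gaps of at most 200 kb all stayed within those limits. Reciprocal overlap of 50% still lowered the overlapped share from 40 to 20% in KO and from 36.4 to 18.2% in WT. These shares stayed within limits only because the intervals are wide. The windows of the 11 serpins outside the clusters held 0 peaks under every setting run for them. No paired analysis was possible because each genotype had 1 library. Small counts and the single library per genotype limit what the serpin windows can show.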
